A study of Mus musculus with 6 samples.

Results

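A set of 10 genes of the contractile apparatus are described here across the deposited libraries: the troponin I genes Tnni1 and Tnni3, the troponin T genes Tnnt1 and Tnnt2, the troponin C gene Tnnc1, the sarcomeric actins Acta1 and Actc1, the Z-disc genes Actn2 and Tcap, and Myom2, which encodes a protein of the M-band rather than the Z-disc. They were chosen by name, as 10 of the 27179 genes of the bulk count table, and all 10 passed the filter on low values (CPM, the count per megaread of a library, over 1 in at least 2 libraries; the CPM values given are TMM-scaled). Immature cardiomyocytes (imCMs) were isolated from C57BL/6 hearts (C57BL/6J in the study's methods) on the first day after birth and co-cultured with cardiac fibroblasts from neonatal (NF) or adult (AF) hearts of the same strain, and the imCMs were sequenced in bulk (imCM-NF, n = 2 libraries; imCM-AF, n = 2 libraries). Cells of the co-culture system were also sequenced singly in the nanowells of ICELL8 chips, 1 labelled cardiomyocytes and 1 labelled fibroblasts. No genetic change is given for either group, the fibroblasts had been passaged before use, and more fibroblasts were plated per imCM with AFs than with NFs. The labels name a centrifugation step to part cardiomyocytes from other cells. The study's methods and supplement describe dye-stained cells that were sorted by flow cytometry after co-culture, for the bulk libraries as well as for the chips.

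In the thin filament of striated muscle, a complex of troponin C, I and T sits on tropomyosin and actin. Troponin C binds calcium, troponin I inhibits the interaction of actin and myosin, and troponin T ties the complex to tropomyosin. In the rodent heart, slow skeletal troponin I (Tnni1) and skeletal alpha-actin (Acta1) are abundant around birth, and cardiac troponin I (Tnni3) and cardiac alpha-actin (Actc1) predominate later, so that the ratios Tnni3 to Tnni1 and Actc1 to Acta1 are commonly read as measures of maturity.

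The sequences directly before listed start sites of these isoform pairs are shown. The ratios rest on counts over whole genes, and whether the counted transcripts begin at these starts was not tested. For Tnni1 and Tnni3 the starts shown lie inside the gene spans given below. Each line gives the 250 bases before a RefSeq start (GRCm38.p6), 5′ to 3′ on the strand of the gene. Capitals mark matches on either strand to CATTCC (the letters bound by TEAD factors), to the TATA box letters TATAAA, to the CArG box or to the MEF2 motif. For Tnni1 the first of the listed starts is given.
Tnni1 (chr1:135799171-135799420, plus strand): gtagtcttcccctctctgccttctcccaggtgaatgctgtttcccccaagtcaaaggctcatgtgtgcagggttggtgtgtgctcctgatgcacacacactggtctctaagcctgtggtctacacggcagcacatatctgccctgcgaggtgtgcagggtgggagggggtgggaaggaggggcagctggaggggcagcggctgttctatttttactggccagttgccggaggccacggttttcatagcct
Tnni3 (chr7:4522529-4522778, minus strand): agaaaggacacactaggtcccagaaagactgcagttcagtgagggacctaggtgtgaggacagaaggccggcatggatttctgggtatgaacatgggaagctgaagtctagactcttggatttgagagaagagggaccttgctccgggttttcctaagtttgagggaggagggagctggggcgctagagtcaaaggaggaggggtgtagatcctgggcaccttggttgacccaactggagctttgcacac
Actc1 (chr2:114052876-114053125, minus strand): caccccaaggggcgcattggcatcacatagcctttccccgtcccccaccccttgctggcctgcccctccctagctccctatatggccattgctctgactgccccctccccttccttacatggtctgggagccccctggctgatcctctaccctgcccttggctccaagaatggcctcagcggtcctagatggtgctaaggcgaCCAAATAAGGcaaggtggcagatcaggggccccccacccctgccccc
Acta1 (chr8:123894776-123895025, minus strand): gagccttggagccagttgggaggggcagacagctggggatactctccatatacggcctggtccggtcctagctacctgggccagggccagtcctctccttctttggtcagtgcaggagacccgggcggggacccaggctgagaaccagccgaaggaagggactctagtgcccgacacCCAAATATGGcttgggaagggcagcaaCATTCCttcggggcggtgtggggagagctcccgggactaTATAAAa

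Of the 10 members, 8 had a promoter entry, and Tcap and Myom2 had none. A CArG box, the motif that serum response factor binds, lay before both sarcomeric actin genes, at -73 to -64 from the Acta1 start and at -47 to -38 from the Actc1 start, and no other matched member held it. It occurred in 1.47% of the 32851 mouse promoters of this length. The Acta1 sequence also held CATTCC at -46 to -41 and TATAAA at -7 to -2. CATTCC was found in 12.6% of all promoters and in 3 matched members (Acta1, Tnnt2 and Tnnc1), and TATAAA in 12.4% of all promoters and in 2 matched members (Acta1 and Tnnt1). No matched member held the MEF2 motif, which occurred in 2.92% of all promoters. The troponin I sequences, whose starts lie inside the gene spans, held none of these motifs. None of these motifs overlapped another, and a match describes letters only.

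Total counts were 9278909 and 12088577 in imCM-NF and 10766124 and 11790263 in imCM-AF, so that even the lowest member count, 245 reads of Acta1, was well above the counting limit. Replicate libraries differed by more than counting noise (chi-square per degree of freedom 9.12 in imCM-NF and 8.94 in imCM-AF). The summed CPM of 18 cardiomyocyte markers that are no members was 41199 and 30180 in imCM-NF 1 and 2 and 38739 and 41809 in imCM-AF 1 and 2. The sum of 12 fibroblast markers was 15528 and 17056 in imCM-NF and 10820 and 8569 in imCM-AF, without overlap. The 10 endothelial markers summed to 1504 and 1606 against 1170 and 1057, the 10 macrophage markers to 74.3 and 89.2 against 65.0 and 72.5, and the 8 smooth muscle markers to 4573 and 4136 against 3689 and 3455. The smooth muscle markers include Des, which is also among the other sarcomere genes listed below. Des alone was at 2182 and 1544 against 1555 and 1679. Of 12 skeletal muscle markers, 2 passed the filter (Mylpf and Ckm, which is also among the cardiomyocyte markers), and Myf5, Myh4, Pax7 and Pvalb had no read in any library. Hence the libraries labelled cardiomyocytes carried cardiomyocyte RNA together with fibroblast RNA, and in such bulk samples fewer cells of a type and less RNA per cell cannot be told apart. The part of these markers in the results on the members was not tested.

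imCM-AF was compared with imCM-NF to ask how members differ with the age of the surrounding fibroblasts. Acta1 was lower in imCM-AF, and it was the only member to pass the threshold of an adjusted p under 0.05 with an absolute log2 fold change over 0.58 in edgeR's quasi-likelihood test, against 11.1% of all 14041 genes tested (6.15% higher, 4.99% lower). Tnnt1, Tcap and Myom2 were higher in imCM-AF with an adjusted p under 0.05 but under the fold threshold, which makes 4 of 10 members at that p alone, against 27.0% of all genes. The values of the groups did not overlap for 5 of 10 members (Tnni3, Tnnt1, Acta1, Tcap and Myom2), against 66.0% of all genes. The median log2 fold change was 0.04 over the members and 0.0011 over all tested genes.

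**Figure D1:**
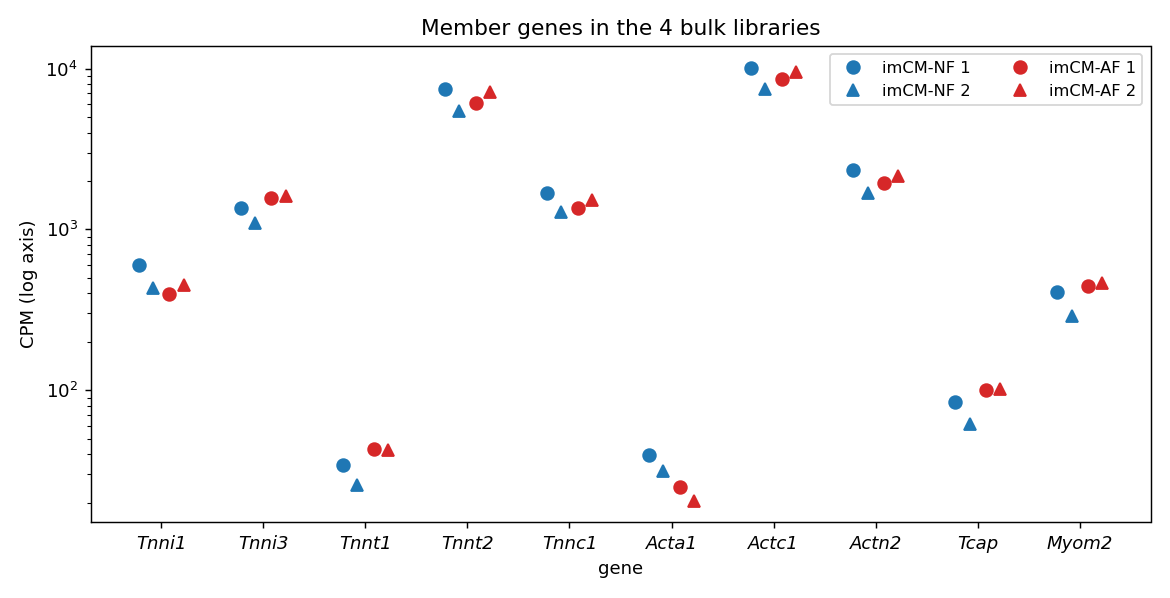
CPM (log axis) of each member gene (horizontal axis) in each of the 4 bulk libraries, blue for imCM-NF and red for imCM-AF, circles for replicate 1 and triangles for replicate 2. Actc1 and Tnnt2 are the highest and Acta1 and Tnnt1 the lowest in every library; the blue triangle lies below the blue circle for all 10 genes.

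The levels spanned a wide range. Per kilobase of exon, averaged over the 4 libraries, Actc1 stood at 6058 CPM and Tnnt2 at 5172, and their ranges over libraries overlapped. Tnnc1 (2030), Tnni3 (1545), Actn2 (676) and Tnni1 (369) followed, each range separate from its neighbours. Tcap (92.0) and Myom2 (79.1) overlapped each other, as did Tnnt1 (33.7) and Acta1 (20.2) at the lower end. imCM-NF 1 had higher CPM than imCM-NF 2 for all members, as it had for the sum of the cardiomyocyte markers.

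Tnni3 encodes the cardiac isoform of the inhibitory subunit, at chr7:4518305-4522718 (GRCm38). Its CPM was 1360 and 1096 in imCM-NF and 1563 and 1615 in imCM-AF. Both imCM-AF libraries were above both imCM-NF libraries, but the difference did not pass the test (log2 fold change 0.37 ± 0.15 SE, edgeR adjusted p = 0.0794). In DESeq2 the adjusted p was 0.0200, and without imCM-NF 1 and imCM-NF 2 in turn the edgeR adjusted p was 0.0210 and 0.315. In these and all later values without a library, the lone library of the reduced group was assumed to vary like those of the other group. The annotation of Tnni3 overlaps Dnaaf3 on the same strand. Tnni1, the slow skeletal isoform at chr1:135783033-135810989, had a CPM of 598 and 430 in imCM-NF and 399 and 451 in imCM-AF. These groups overlapped, and the log2 fold change was -0.27 ± 0.14 SE (edgeR adjusted p = 0.162).

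Within a library the ratio of the troponin I isoforms needs no scaling. The ratio of Tnni3 to Tnni1 counts was 2.28 and 2.55 in imCM-NF and 3.92 and 3.58 in imCM-AF. The imCM-AF libraries both stood above the imCM-NF libraries, by 0.64 ± 0.10 (SE) on the log2 scale, several times the spread within a group (SD 0.12 in imCM-NF and 0.09 in imCM-AF). With 2 libraries against 2, the exact two-sided permutation p was 0.333, the smallest this design allows. Per kilobase of exon the ratios were 3.18 and 3.56 in imCM-NF and 5.47 and 4.99 in imCM-AF. The cardiac isoform was thus the more abundant troponin I transcript in every library.

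Tnnt2, the cardiac troponin T (chr1:135836315-135852268), was among the most abundant members. Its CPM was 7463 and 5416 in imCM-NF and 6145 and 7103 in imCM-AF, and the imCM-AF values lay between the imCM-NF values (log2 fold change 0.04 ± 0.22 SE, edgeR adjusted p = 0.914). Tnnt1, the slow skeletal troponin T (chr7:4504569-4515975), was far lower. Its CPM was 34.1 and 25.7 in imCM-NF and 42.9 and 42.8 in imCM-AF, higher in both imCM-AF libraries (log2 fold change 0.53 ± 0.12 SE, edgeR adjusted p = 0.00417). Without imCM-NF 1 its log2 fold change was 0.74, past the fold threshold, and without imCM-NF 2 its adjusted p was 0.0979. Tnnc1, which encodes the calcium-binding subunit of slow muscle and heart (chr14:31208312-31211729), had a CPM of 1688 and 1286 in imCM-NF and 1365 and 1516 in imCM-AF. The groups overlapped (log2 fold change -0.05 ± 0.16 SE, edgeR adjusted p = 0.863), and with scaling by library totals alone the value was 0.00055. On the opposite strand Tnnc1 overlaps Nisch.

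Acta1 lies at chr8:123891758-123894775 and overlaps Gm20388 on the opposite strand. Its CPM was 39.8 and 31.4 in imCM-NF and 25.1 and 20.6 in imCM-AF, from 357, 380, 275 and 245 reads. Both imCM-AF libraries were lower (log2 fold change -0.63 ± 0.13 SE, edgeR adjusted p = 0.00229). The call rested on imCM-NF 1 and imCM-AF 2: without the former the log2 fold change was -0.46 and without the latter -0.49, both short of the fold threshold with an edgeR adjusted p of 0.0377 and 0.0219. Actc1 lies at chr2:114047282-114052875 and overlaps A530058N18Rik on the opposite strand. Its CPM was 10143 and 7429 in imCM-NF and 8655 and 9469 in imCM-AF, and the groups overlapped (log2 fold change 0.04 ± 0.24 SE, edgeR adjusted p = 0.911).

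The ratio of Actc1 to Acta1 counts was 255 and 237 in imCM-NF and 345 and 460 in imCM-AF. Again the groups did not overlap, with a difference of 0.70 ± 0.21 (SE) on the log2 scale and an exact two-sided permutation p of 0.333, the smallest possible. Unlike the troponin I ratio, this one was spread within imCM-AF (SD 0.29, against 0.08 in imCM-NF), and it came from the Acta1 count, since Actc1 itself overlapped between groups. Cardiac actin transcripts outnumbered skeletal actin transcripts more than 200-fold in every library.

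**Figure D2:**
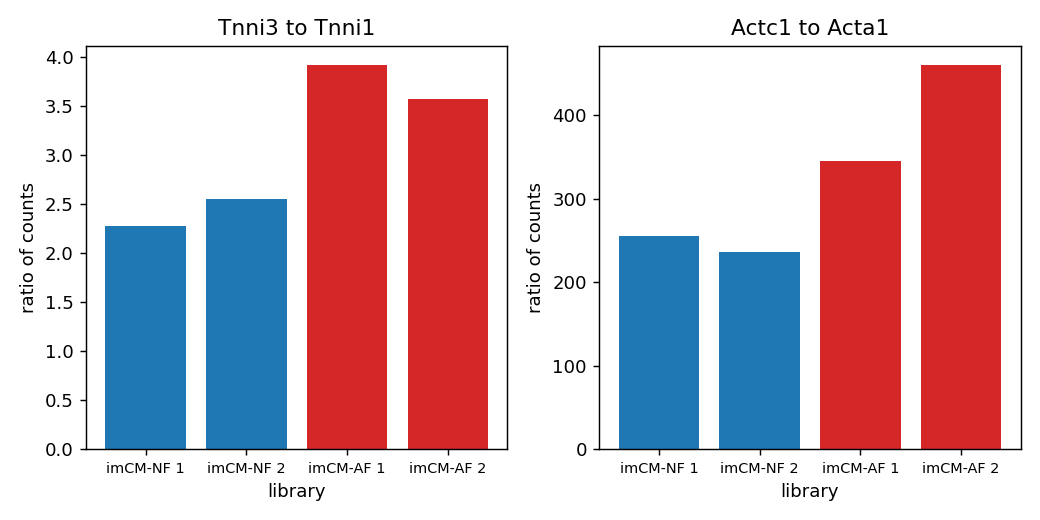
Ratio of counts (vertical axes, starting at 0) of Tnni3 to Tnni1 (left) and of Actc1 to Acta1 (right) in each bulk library, blue for imCM-NF and red for imCM-AF. Both imCM-AF bars are above both imCM-NF bars in each panel (3.92 and 3.58 against 2.28 and 2.55; 345 and 460 against 255 and 237).

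Actn2 encodes alpha-actinin, which crosslinks actin filaments at the Z-disc (chr13:12269426-12340732). Its CPM was 2342 and 1693 in imCM-NF and 1951 and 2163 in imCM-AF, with overlap (log2 fold change 0.03 ± 0.18 SE, edgeR adjusted p = 0.927). Tcap encodes telethonin, which caps titin at the Z-disc (chr11:98383811-98384953). Its CPM was 84.7 and 61.6 in imCM-NF and 100.4 and 102.2 in imCM-AF, higher in both imCM-AF libraries (log2 fold change 0.48 ± 0.12 SE, edgeR adjusted p = 0.00725). Without imCM-NF 1 the log2 fold change of Tcap was 0.72, past the fold threshold, and without imCM-NF 2 its adjusted p was 0.111. Myom2, which encodes myomesin 2 and crosslinks myosin filaments at the M-band (chr8:15057653-15133420), had a CPM of 409 and 288 in imCM-NF and 445 and 464 in imCM-AF. Both imCM-AF libraries were higher, at the edge of the threshold (log2 fold change 0.38 ± 0.14 SE, edgeR adjusted p = 0.0482), and the adjusted p was 0.0570 in DESeq2. Without imCM-NF 1 the log2 fold change was 0.65, past both thresholds, and without imCM-NF 2 the adjusted p was 0.360. Myom2 overlaps Gm15678 on the opposite strand.

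**Figure D3:**
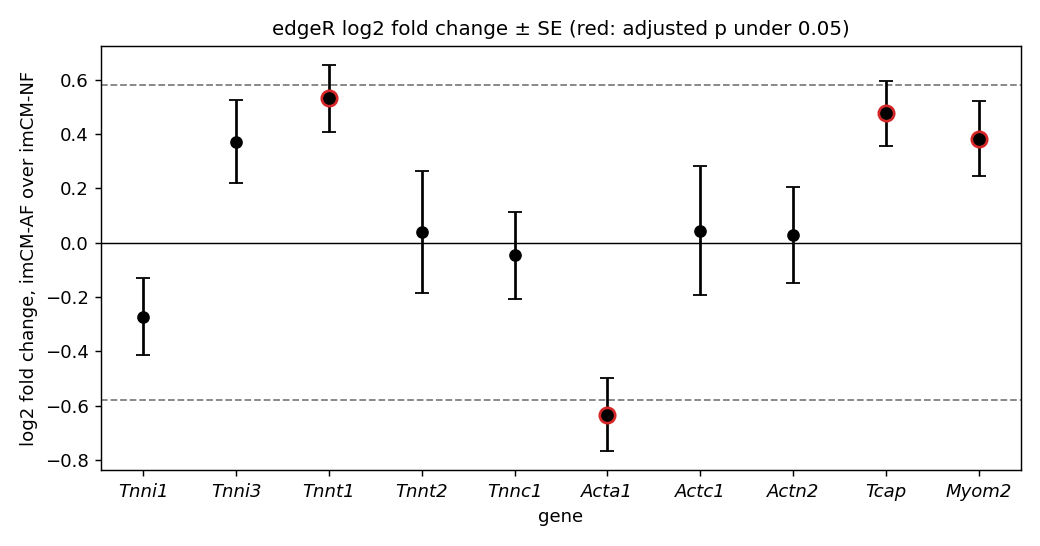
log2 fold change of each member gene, imCM-AF over imCM-NF (vertical axis), from edgeR with error bars of ± 1 SE; points ringed in red have an adjusted p under 0.05 and dashed lines mark the fold threshold of ± 0.58. Acta1, at -0.63, is the only ringed point beyond a dashed line, while Tnnt1, Tcap and Myom2 are ringed but inside the lines.

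Because imCM-NF 1 and 2 differed in their cardiomyocyte marker sum, each member was also expressed per 1000 CPM of those 18 markers, an alternative chosen after seeing the data. On this scale the imCM-NF replicates came closer, while the imCM-AF replicates moved apart for several members, Acta1 among them (0.648 and 0.492). The groups did not overlap for any of the 10 members, against 47.7% of all genes not overlapping. Since imCM-NF 1 stood above imCM-NF 2 for the markers as for all members, dividing by the markers takes out that difference. Other genes need not share it, and the share over all genes was 66.0% before this scaling. The 47.7% is thus no like background, and no conclusion is drawn from the lack of overlap. The median of all genes shifted by -0.21 on the log2 scale. Tnni1 was 14.5 and 14.2 in imCM-NF and 10.3 and 10.8 in imCM-AF, a log2 difference of -0.45. Tnni3 was 33.0 and 36.3 against 40.3 and 38.6, a log2 difference of 0.19. As a description only, Tnni1 was lower and Tnni3 higher in both imCM-AF libraries on this scale. By log2 difference, Acta1 (-0.82) and Tnnc1 (-0.23) lay below the median shift of all genes as Tnni1 did, Actc1 (-0.13), Tnnt2 (-0.13) and Actn2 (-0.15) were lower in imCM-AF but above that shift, and Tnnt1 (0.34), Tcap (0.30) and Myom2 (0.21) were higher. The markers include Ttn, Pln, Ckmt2 and Cox6a2, which were themselves called higher in imCM-AF, and Nppa, which was called lower.

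Other sarcomere genes give the setting of the members. Of a list of 52, 46 were tested, and 9 were called higher and 0 lower in imCM-AF by edgeR, with 33 above and 13 below a log2 fold change of 0. Over all tested genes, 6.15% were called higher and 4.99% lower. At an adjusted p under 0.05 alone, 15 of the 46 passed, against 27.0% of all genes. The median log2 fold change was 0.21. The count of 9 rested on single libraries, being 17 without imCM-NF 1, 3 without imCM-NF 2 and 5 without imCM-AF 2. The called genes with the largest values were Trim54, a muscle ubiquitin ligase of the Z-disc and M-band (CPM 29.6 and 24.1 in imCM-NF, 69.3 and 73.6 in imCM-AF, log2 fold change 1.42 ± 0.11 SE, edgeR adjusted p = 1.57e-07), and Nebl, the nebulin-like protein of the cardiac Z-disc (38.0 and 28.3 against 66.9 and 84.9, log2 fold change 1.21 ± 0.13 SE, edgeR adjusted p = 5.57e-06). Neb (1.12), Ankrd1 (0.79), Nexn (0.70), Mypn (0.64), Ttn (0.62) and Smyd1 (0.59) followed by log2 fold change. These 8 genes were picked from the called genes without overlap of the groups, so their lack of overlap is no separate result.

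Close relatives of the members were mostly low. The fast skeletal isoforms Tnni2 and Tnnt3 had a CPM of at most 1.56 and 4.12 in any library and did not pass the test (edgeR adjusted p = 0.370 and 0.235). Tnnc2, Actn3 and Myom3 were filtered out as too low. The tropomyosin Tpm1, at a CPM from 6062 to 7729, had a log2 fold change of -0.01 ± 0.22 SE (edgeR adjusted p = 0.980) and Tpm2 one of 0.11 ± 0.12 SE (edgeR adjusted p = 0.529). Myom1, the main myomesin of the heart, had a CPM of 757 and 523 in imCM-NF and 748 and 824 in imCM-AF (log2 fold change 0.30 ± 0.15 SE, edgeR adjusted p = 0.160).

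In the single-cell data each well carries a Type name. The names are not explained in the labels. The bulk titles use NCM with NF or AF for libraries labelled cardiomyocytes co-cultured with those fibroblasts, and the wells are described here by name only: NCM0, NFNCM and AFNCM on the cardiomyocyte chip, and NF0, AF0, NF and AF on the fibroblast chip, each name with a number. Whether numbers stand for separate cultures is not stated, so no test was made, and intervals cover counting error only. Of 2462 wells other than controls, 2247 passed the filters, with 258 of NCM0, 523 of NFNCM and 515 of AFNCM. The chips shared 269 well barcodes. The cardiomyocyte markers held more UMIs (unique molecular identifiers, each counting 1 transcript molecule) than the fibroblast, endothelial, macrophage and smooth muscle markers together in 96.1% of NCM0 wells, 83.2% of NFNCM wells and 73.4% of AFNCM wells, which are called cardiomyocyte-marker wells here. Des was counted there with the smooth muscle markers. The 12 fibroblast markers summed to 970, 1047 and 2587 CPM (here scaled to the UMI total of each set) in NCM0, NFNCM and AFNCM. The labelled cell type thus held for most wells of the cardiomyocyte chip, less so in AFNCM. In the 5 negative control wells of that chip, 29 Tnnt2, 7 Actc1, 5 Tnni3, 5 Tnnc1, 3 Tnni1 and 2 Tcap UMIs were found and none of the other members. These wells were shallow, with a median of 145 UMIs and at most 951. The members made up 34812 CPM of their UMIs, against 29788 in NCM0, 29879 in NFNCM and 26002 in AFNCM. The negative control wells of the fibroblast chip held 12 Acta1, 8 Actc1 and 1 Actn2 UMIs, at a median depth of 217 and at most 2374 UMIs. The members made up 5854 CPM there, more than in NF0 (3600), AF0 (455), NF (2721) or AF (513). The part of free RNA in the values of the other wells was not tested.

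The Type values of AFNCM and NFNCM did not overlap for 6 of the 10 members, against 20.6% of the 11122 genes with at least 100 UMIs in these wells (14.5% higher and 6.10% lower in AFNCM). Tnni3, Tnnc1, Tcap and Myom2 were lower in AFNCM, and Tnnt1 and Acta1 were higher. Of the 5 members that did not overlap between the bulk groups, all were among these 6, but only Tnnt1 differed in the same direction in wells and bulk libraries, while Tnni3, Acta1, Tcap and Myom2 differed in opposite directions. Whether wells and bulk libraries differ in these effects was not tested. Among cardiomyocyte-marker wells alone the Type values did not overlap for the same 6 members, against 19.9% of 9791 genes (13.5% higher and 6.37% lower). In all filtered wells the cardiomyocyte markers that are no members summed to 32226 CPM over NFNCM and 26083 over AFNCM. For this sum the values of the names overlapped (lowest NFNCM 28660, highest AFNCM 29477). The part of this sum in the differences of the members was not tested.

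**Figure D4:**
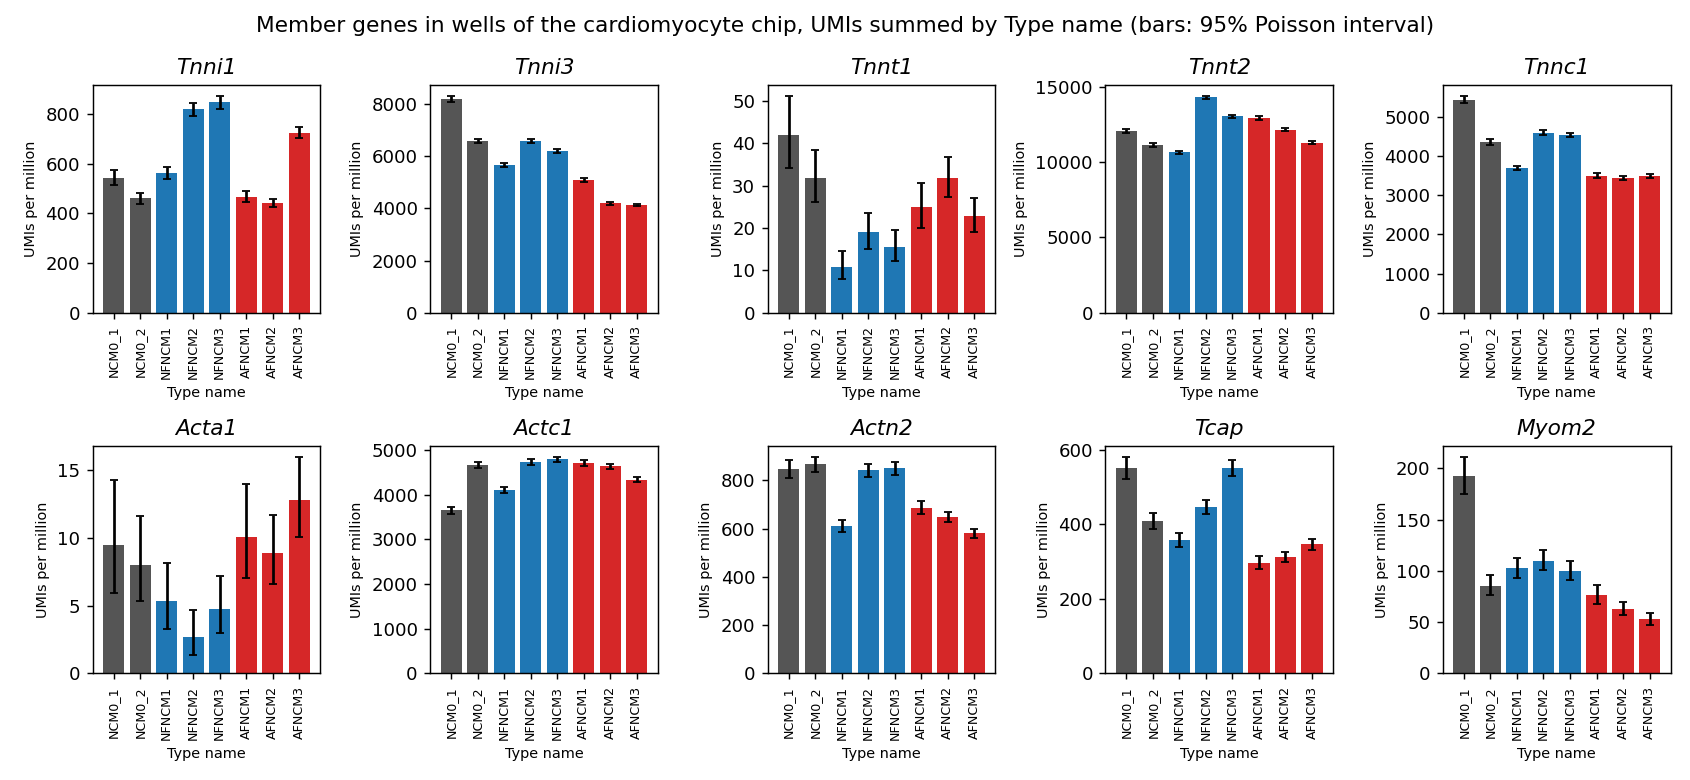
CPM (scaled to the UMI total of each name) of each member gene (1 panel each, vertical axes starting at 0) in filtered wells of the cardiomyocyte chip, summed by Type name (grey NCM0, blue NFNCM, red AFNCM), with exact 95% Poisson intervals for counting error. The red bars of Tnni3, Tnnc1, Tcap and Myom2 are all below the blue bars, those of Tnnt1 and Acta1 are all above them, and in the other panels the colours overlap.

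Tnni3 reached 8207 and 6591 CPM in NCM0, 5651, 6581 and 6194 in NFNCM and 5103, 4202 and 4136 in AFNCM. All AFNCM values were below all others. Among cardiomyocyte-marker wells it was 7824 over NFNCM and 5941 over AFNCM, so AFNCM was again the lower of these sets. Tnni1 was 543 and 461 in NCM0, 563, 819 and 847 in NFNCM and 467, 442 and 725 in AFNCM, and NFNCM and AFNCM overlapped. Each well with at least 5000 UMIs was thinned to 5000, and wells with fewer were left out of the thinned shares here and below. A Tnni1 UMI was then found in 65.1% of 215 NCM0 wells, 69.0% of 410 NFNCM wells and 57.8% of 438 AFNCM wells. The unthinned shares, over all filtered wells, were 76.0%, 74.2% and 71.5%, at a median depth of 16044, 18770 and 19709 UMIs. In AF wells of the fibroblast chip, whose median depth was 28923, the unthinned share was 8.68% and the thinned share 4.33%.

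The share of Tnni3 in the sum of Tnni3 and Tnni1 UMIs was 93.8% and 93.5% in NCM0, 90.9%, 88.9% and 88.0% in NFNCM and 91.6%, 90.5% and 85.1% in AFNCM. Both NCM0 values were above the other 6, and NFNCM and AFNCM overlapped. Pooled over wells, the share was 89.1% (exact 95% binomial interval 88.9 to 89.3) in NFNCM and 88.7% (88.5 to 88.9) in AFNCM. The isoform ratio that separated the bulk libraries thus did not separate the AFNCM and NFNCM names. Among wells with at least 5 UMIs of the pair, the median share per well was 95.9% in NCM0, 92.0% in NFNCM and 92.4% in AFNCM, and the central 50 percent of NFNCM wells ran from 84.2% to 98.4% and that of AFNCM wells from 82.6% to 98.7%. UMIs are not scaled by length and the bulk ratios rest on reads, so the levels of the ratios are not compared between the assays.

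Tnnt2 was the most abundant member in wells, at 12048 and 11138 CPM in NCM0, 10648, 14285 and 13035 in NFNCM and 12913, 12149 and 11289 in AFNCM, with overlap. Tnnc1 was 5449 and 4361 in NCM0, 3695, 4600 and 4543 in NFNCM and 3497, 3437 and 3487 in AFNCM, where all AFNCM values were lower than all others. Tnnt1 was 42.0 and 31.8 in NCM0, 10.9, 18.9 and 15.6 in NFNCM and 24.9, 31.8 and 22.8 in AFNCM. It was lower in NFNCM than in either other set. Without the 1 well with the most Tnnt1 UMIs in each name, Tnnt1 was from 8.64 to 16.2 in NFNCM and from 18.3 to 27.7 in AFNCM, and without the 3 highest wells the names overlapped (6.20 to 13.9 against 8.02 to 22.4).

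Acta1 was near the lower end of detection. It had 50 UMIs over all NCM0 wells, 55 over NFNCM and 161 over AFNCM, or 9.43 and 8.02 CPM in NCM0, 5.31, 2.67 and 4.76 in NFNCM and 10.1, 8.87 and 12.8 in AFNCM. Only 3 wells held 72, or 44.7%, of the AFNCM UMIs. Without the highest well of each name the values were 3.71, 7.83 and 7.79 in AFNCM and 4.32, 2.25 and 3.70 in NFNCM, which overlapped. The fibroblast chip gave 6.24 in NF0, 7.03 in AF0, 5.62 in NF and 6.72 in AF, within the range of the cardiomyocyte chip, so that Acta1 UMIs in these wells did not separate the labelled cell types. After thinning, an Acta1 UMI was seen in 1.95% of NFNCM and 2.74% of AFNCM wells and in 3.37% of AF wells, and the unthinned shares were 7.46%, 9.13% and 18.3%. Among cardiomyocyte-marker wells Acta1 had 30 UMIs in NFNCM and 136 in AFNCM, and the values of the names were also apart.

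Actc1 was 3655 and 4663 CPM in NCM0, 4101, 4732 and 4790 in NFNCM and 4711, 4635 and 4338 in AFNCM. The 3 sets overlapped, as the bulk groups did. It made up 99.8% of Actc1 and Acta1 UMIs in NCM0, 99.9% in NFNCM and 99.8% in AFNCM. By name, Actc1 had 16210, 21234 and 22137 UMIs and Acta1 21, 12 and 22 in NFNCM. In AFNCM Actc1 had 16820, 26130 and 25504 and Acta1 36, 50 and 75. The ratio of Actc1 to Acta1 was thus lower in every AFNCM name than in every NFNCM name, opposite in direction to the bulk libraries. It rested on the few Acta1 UMIs, whose values overlapped without the highest well of each name. Actn2 was 846 and 867 in NCM0, 611, 841 and 849 in NFNCM and 685, 647 and 580 in AFNCM, with overlap of NFNCM and AFNCM. Tcap was 551 and 409 in NCM0, 359, 446 and 552 in NFNCM and 297, 312 and 346 in AFNCM, lower in all AFNCM names.

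Myom2 was 193 and 85.7 CPM in NCM0, 102.5, 109.9 and 99.98 in NFNCM and 76.7, 63.0 and 52.7 in AFNCM. The AFNCM values were the lowest and stayed apart from NFNCM without the 3 highest wells of each name (29.6 to 44.4 against 72.8 to 91.6). On the fibroblast chip, Myom2 stood at 98.0 in NF0, 232 in AF0, 107 in NF and 54.7 in AF, where AF was below all sets of the cardiomyocyte chip and AF0 above them. In AF0, 3 of 170 wells held 61.8% of its UMIs, and without them it was 91.7. A Myom2 UMI was found in 64.1% of AF0 wells at a median depth of 38627 UMIs and in 30.2% after thinning, against 41.5% and 27.9% in NCM0. After thinning, the share was 27.3% in NFNCM and 12.8% in AFNCM on the cardiomyocyte chip, and 15.3% in NF0, 13.9% in NF and 6.73% in AF on the fibroblast chip. Neither set of negative control wells held a Myom2 UMI. With a median depth of 145 and 217 UMIs, these wells were too shallow to show a gene at such levels, so nothing is concluded from that. The shares of the chips thus overlapped, with NF0, NF and AF below NCM0 and NFNCM.

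The members also differed in how they varied together across the 1296 filtered wells of the cardiomyocyte chip. As a description across wells, which share libraries and differ in depth and in cell type, Pearson's r of log-normalised values was 0.82 for Tnni3 and Tnnc1, 0.81 for Tnnt2 and Tnnc1, 0.80 for Tnnt2 and Actc1 and 0.49 for Tnni1 and Tnni3. Acta1 was between -0.07 and 0.01 with every member, Myom2 between -0.04 and 0.18, and Tnnt1 between 0.01 and 0.16. These 3 genes were sparse. At most 9.13% (Acta1, in AFNCM), 41.5% (Myom2, in NCM0) and 19.4% (Tnnt1, in NCM0) of the wells of a set held a UMI. Their low r values therefore do not show that they varied apart from the other members. Among 7458 genes with a UMI in at least 10% of wells, the non-member genes most like Tnni3 were Tpm1 (0.82), Myh6 (0.78), Chchd10 (0.73), Cox7a1 (0.72) and Mdh1 (0.72). For Actc1 they were Tpm1 (0.81), Myh6 (0.80), Atp2a2 (0.70), Myl2 (0.69) and Ttn (0.69), and for Tnni1 they were Tpm1 (0.53), Mdh1 (0.48), Myh6 (0.48), Cst3 (0.47) and Pgam2 (0.46). The highest with Acta1 was Chchd4 at 0.17, followed by Glrx5 (0.16), Gnl2 (0.15), Cdc73 (0.15) and Tmem47 (0.15), and in such sparse counts these are no likeness.

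On the fibroblast chip Tnni3 was at 484 CPM in NF0, 341 in NF, 28.2 in AF0 and 83.3 in AF. The highest well alone held 181 of the 237 Tnni3 UMIs of AF0 and 479 of the 731 of AF, and without it the values were 6.70 and 28.9. Tnnt2 was the highest member in NF0, NF and AF. In AF0 Myom2 was higher (232 against 146), but without the 3 highest wells for each gene Tnnt2 was at 110 and Myom2 at 91.7. Tnnt2 was 2138 and 2192 CPM in NF0, 1403 and 2060 in NF, 164 and 134 in AF0 and 352 and 69.4 in AF, higher in every NF0 and NF name than in every AF0 and AF name. A Tnnt2 UMI was found in 97.4% of NF0 and 92.6% of NF wells, against 66.5% of AF0 and 46.1% of AF wells, and after thinning in 93.4%, 81.6%, 27.2% and 21.2%. Cardiomyocyte-marker wells made up 8.82% of NF0, 6.25% of NF, 0.588% of AF0 and 0.913% of AF wells. In the remaining wells Tnnt2 was 1166 and 1428 in NF0, 790 and 1266 in NF, 125 and 134 in AF0 and 92.7 and 69.4 in AF, so the order held without them.

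Tnnt2 was also set against Tnni3, the cardiac troponin I. In cardiomyocyte-marker wells of the cardiomyocyte chip there were 1.46 and 1.69 Tnnt2 UMIs per Tnni3 UMI in NCM0, 1.81, 2.13 and 2.09 in NFNCM and 2.54, 2.90 and 2.76 in AFNCM, without overlap of these 3 sets. In the wells of the fibroblast chip that were not cardiomyocyte-marker wells the ratio was 24.1 and 21.9 in NF0, 15.3 and 25.4 in NF, 20.5 and 19.0 in AF0 and 8.12 and 8.20 in AF. All 8 values exceeded all 8 of the cardiomyocyte-marker wells of the cardiomyocyte chip, and the exact 95% intervals, which cover counting error only, did not meet. This comparison is across chips. In the cardiomyocyte-marker wells of the fibroblast chip, from 1 to 14 wells a name, the ratio was 2.12 and 2.39 in NF0, 1.48 and 6.76 in NF, 0.718 in AF0_1 and 1.89 in AF1, and AF0_2 and AF2 had no such well. The interval of NF2 (6.13 to 7.48) met those of the other wells of AF1 and AF2, whose lower bounds were 6.07 and 5.76. On the cardiomyocyte chip, the wells of NFNCM that were not cardiomyocyte-marker wells also lay higher, at 7.05, 7.67 and 4.05, whereas those of AFNCM lay at 2.26, 2.78 and 2.21. In the negative control wells of that chip the ratio was 5.80, from 29 Tnnt2 and 5 Tnni3 UMIs. Its interval (2.22 to 19.2) held the values of these NFNCM wells, and also those of the cardiomyocyte-marker wells of AFNCM. Within the 14 names that held both kinds of wells, the ratio was higher in the wells without a cardiomyocyte marker excess in 11, NCM0_2 (1.75 against 1.69) included, and lower in the 3 of AFNCM. The source of this Tnnt2 RNA was not tested.

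**Figure D5:**
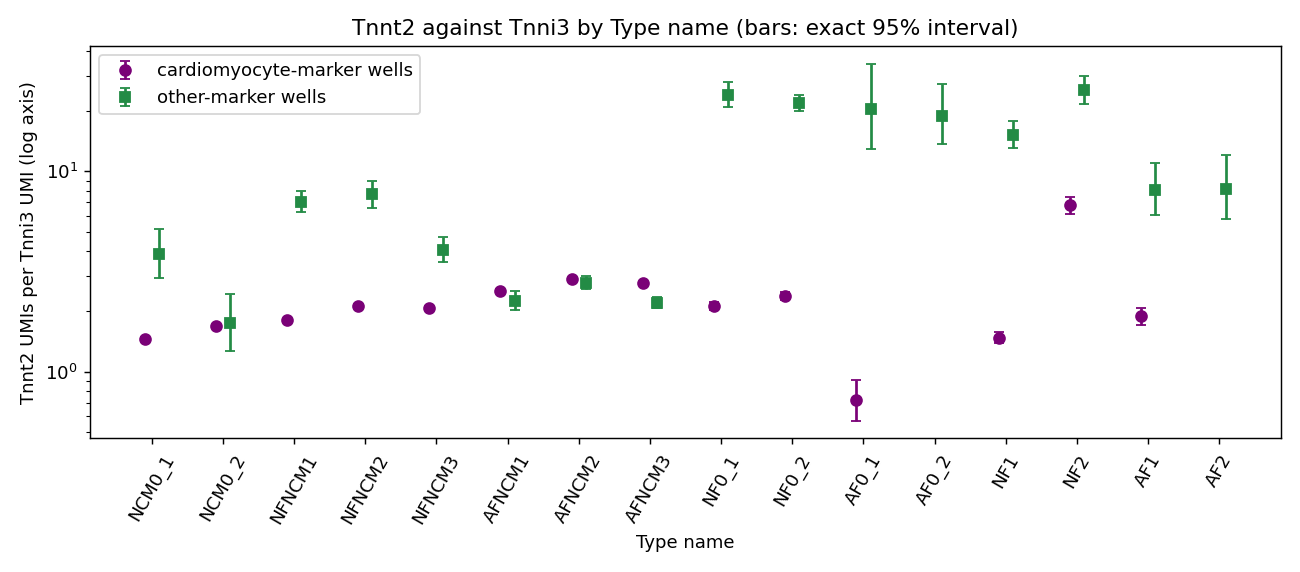
Tnnt2 UMIs per Tnni3 UMI (log axis) by Type name, for cardiomyocyte-marker wells (purple circles) and the other filtered wells (green squares), with exact 95% intervals for counting error. Green squares of the fibroblast chip, from 8.12 to 25.4, lie above all purple circles of the cardiomyocyte chip, from 1.46 to 2.90, and the purple circles of the fibroblast chip, from 0.718 to 6.76, rest on few wells.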

How the data were processed

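Gene counts of the 4 bulk libraries, unscaled and keyed by Entrez number, were used as the authors deposited them, and 1904 identifiers had no symbol in the reference. Per the study's methods, reads were aligned to mm10 with subread and uniquely placed reads were assigned to built-in RefSeq genes by featureCounts, with strand use not given in the sources used here. For the chips the authors deposited UMI counts per Ensembl gene and well, and a report of reads, alignment and other values per well. The submitters' processing notes name STAR 2.5.2b and Subread 1.4.6-p1. The 2 assays thus rest on different gene models. Gene coordinates (GRCm38) and promoters (GRCm38.p6) are from RefSeq, and exon lengths and gene overlaps from the GENCODE M21 annotation of GRCm38.

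The bulk comparison used edgeR 4.0.16 (R 4.3.3) with TMM scaling on genes with CPM over 1 in at least 2 libraries, the quasi-likelihood test and Benjamini-Hochberg adjustment over 14041 genes. SEs of ratios are from the spread of libraries. Nothing states that replicates were separate cultures, so p-values measure the spread between these libraries, which may be technical. The filter on wells required 500 detected genes, an alignment rate above 50% and UMIs no further than 2 SD from the average, which left 2247 of 2462 wells. Mitochondrial genes and spike-ins (85 and 79 columns) were left out, and no doublet caller was run, since the study's methods describe that wells with single live cells were picked from images. Intervals are exact at 95%. The tests were checked on simulated data.

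Alternatives were RLE, upper-quartile and total scaling, DESeq2 1.42.0, limma-voom (limma 3.58.1), other filters, a replicate block and leaving out each library, and for wells other filters, means over wells and cardiomyocyte-marker wells alone. Members, lists and tests were chosen with earlier results of these data known. All members were named. Of the other sarcomere list, called genes without overlap were named, at most 8 in each direction, together with 8 close relatives, and likeness gave the 5 genes with the highest correlation.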

Additional observations from a re-analysis of the deposited data

Results flagged for a closer look

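In 4 members, all AFNCM Type values lay on 1 side of all NFNCM values while both imCM-AF libraries lay on the other side of both imCM-NF libraries. For Tnni3 the log2 ratio of AFNCM to NFNCM wells was -0.49, against a bulk log2 fold change of 0.37. For Tcap it was -0.51 against 0.48, and for Myom2 -0.74 against 0.38. For Acta1 it was 1.34 against -0.63, and it rested on few wells, since 3 of 515 AFNCM wells held 44.7% of the UMIs. The difference between wells and bulk libraries was not tested in any of these genes. AFNCM also held fewer cardiomyocyte-marker wells (73.4% against 83.2% in NFNCM). Among those wells alone, which were set only by an excess of cardiomyocyte over other marker UMIs, the 4 genes kept the directions of all wells. The fibroblast marker sum was lower in bulk imCM-AF (10820 and 8569 CPM against 15528 and 17056 in imCM-NF). In wells it was higher over AFNCM than over NFNCM (2587 against 1047 CPM). The part of cell composition in these directions was not tested.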

How the results depend on the processing

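The count of members called in the bulk comparison was 1 under each of RLE, upper-quartile and total scaling, DESeq2, limma-voom, both other filters and the replicate block. Leaving out 1 library, which takes the spread from the group left with 2, gave from 0 to 3 called members, from 3 to 17 called genes of the other sarcomere list (9 with all libraries) and from 879 to 1929 called genes in all (1564 with all libraries). Over all genes, leaving out imCM-NF 2 or imCM-AF 2 gave the low counts (879 and 988) and imCM-NF 1 the highest. The members that lost or gained a call were Acta1, Tnnt1, Tcap and Myom2. Of members close to 0, Tnnt2 (-0.16 and -0.06), Actc1 (-0.15 and -0.02) and Actn2 (-0.18 and -0.04) turned negative without imCM-NF 2 and without imCM-AF 2, and Tnnc1 turned positive without imCM-NF 1 (0.16), without imCM-AF 1 (0.04) and under total scaling (0.00055). The ranges over left-out libraries were -0.16 to 0.29 for Tnnt2, -0.22 to 0.16 for Tnnc1, -0.15 to 0.28 for Actc1 and -0.18 to 0.28 for Actn2. None of these was called, and the cause was not tested. Same-numbered libraries share only a number (correlation of deviations over genes -0.13). With the replicate block 1430 genes, 8 of the other sarcomere list and 1 member were called, and with crossed numbers, chosen after seeing the data, 1668, 10 and 1. The log2 difference of the Tnni3 to Tnni1 ratio ranged from 0.55 to 0.72 and that of Actc1 to Acta1 from 0.49 to 0.91 on leaving out a library, and pairing left them at 0.64 and 0.70 with an SE of 0.15 and 0.26.

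Without the filter on wells, the AFNCM minus NFNCM share of Tnni3 moved from -0.41 to -1.18 percentage points and that of Actc1 from -0.143 to -0.086. The design of 2 libraries a group and the few UMIs of Acta1, Tnnt1 and Myom2 limit these results.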
